A study of Mus musculus with 10 samples.

Results

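The hormone genes described here are 5 products of L, N and PP-type endocrine cells: *Gcg*, *Pyy*, *Nts*, *Insl5* and *Ppy*. They were taken by name from the 54532 genes of a table of read counts, a set of names chosen with earlier results of these data known. All 5 passed the filter on low counts, more than 0.5 cpm (counts scaled to the size of the library) in at least 3 of 10 libraries. *Insl5* and *Ppy* passed it through GUCY2Chi cells alone, since neither had a count in GUCY2Cmed cells. 4 of the 5 were called higher in GUCY2Chi cells, beside 13.9% of all 15703 genes tested, and this count describes a set that was not chosen independently of the data. The fifth, *Insl5*, was higher in every mouse and missed the threshold.

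L cells, which become more frequent toward the distal gut, make proglucagon and peptide YY, and N cells make neurotensin. In L cells a prohormone convertase cuts proglucagon, the product of *Gcg*, into the incretin GLP-1 and into GLP-2, which supports growth of the mucosa, whereas pancreatic alpha cells release glucagon from the same precursor. These hormones are stored in granules and released when the cell senses nutrients in the lumen.

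RNA was sequenced from small intestinal epithelium of 5 litter-matched Gucy2c-GFP mice on the outbred CD1/ICR background, aged 10 weeks. Both groups carried the same transgene, in which the promoter of *Gucy2c*, the gene of the epithelial receptor guanylyl cyclase C, drives GFP. Live single cells were sorted by fluorescence, 20000 per library, into GUCY2Chi cells (high GFP) and GUCY2Cmed cells (medium GFP, named Medium and Lo in the labels). Each group had 5 libraries, and the numbers they bear, 2, 7, 12, 14 and 15, are used here as mouse numbers. The gate followed the reporter and not a hormone, and cells were not typed one by one. In such bulk libraries fewer endocrine cells and less RNA per cell cannot be told apart.

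Libraries held from 13090212 to 13520800 counts on genes in GUCY2Chi cells and from 10903958 to 15307932 in GUCY2Cmed cells. *Gucy2c* itself was at 1322 ± 526 cpm (SD, n = 5) in GUCY2Chi cells and at 404 ± 64.7 cpm (SD, n = 5) in GUCY2Cmed cells. The granule markers *Chga*, *Chgb*, *Scg2* and *Scg3* summed to between 4591 and 57803 cpm in GUCY2Chi cells and to at most 139 cpm in GUCY2Cmed cells. The GUCY2Chi libraries of mice 12 and 15 stood apart by their enterocyte markers. In them the summed level of 9 enterocyte markers, led by *Apoa1*, was 45.5% and 43.1% of that in GUCY2Cmed cells of the same mouse, against 5.11% to 5.70% in mice 2, 7 and 14. Results are therefore also given without mice 12 and 15. Of the 9 enterocyte markers 1, *Anpep*, was called lower (adjusted p = 0.00497, edgeR), beside 8.79% of all genes tested. The other 8 were not called, and *Sis* overlapped between the groups. Summed goblet (led by *Zg16*), Paneth (*Lyz1*), tuft (*Dclk1*) and immune (*Cd3g*) markers overlapped between the groups, as did 7 forebrain neuron markers, led by *Nrgn*, which ranged from 26.5 to 1162 cpm and from 11.3 to 648 cpm. Goblet and Paneth markers were highest in GUCY2Chi cells of mouse 2, at 21455.5 and 30042 cpm, against 5831 and 4776 cpm in its GUCY2Cmed cells. The other GUCY2Chi libraries reached at most 8470 and 15998 cpm. The 8 enteric neuron markers summed to between 44.7 and 88.9 cpm in GUCY2Chi cells and to between 2.41 and 11.4 cpm in GUCY2Cmed cells. *Ret* led them at a mean of 48.8 against 0.486 cpm. It was the 1 gene called higher among the 5 tested (adjusted p = 6.95e-06, edgeR), and *Hand2* had no count. The 4 ileum markers, led by *Slc51a*, summed to between 812 and 1851 cpm in GUCY2Cmed cells and to between 25.7 and 609.8 cpm in GUCY2Chi cells. All 4 were not called. Only *Slc51a*, at a mean of 897 against 171 cpm in GUCY2Chi cells, did not overlap between the groups, while *Fabp6*, *Slc10a2* and *Fgf15* did. Of 4 large intestine markers, *Hoxd10*, *Hoxd13* and *Hoxb13* had no count. *Gcg* and *Ppy* are also pancreatic genes. The 10 acinar markers summed to between 82.2 and 225 cpm in GUCY2Chi cells and to between 37.4 and 82.4 cpm in GUCY2Cmed cells. *Clps* led them at a mean of 114 against 51.6 cpm (not called), *Cela1* was called higher at 28.1 against 13.5 cpm (adjusted p = 0.00169, edgeR), *Pnlip* had 3 to 10 counts in each GUCY2Chi library and none in GUCY2Cmed cells, and *Cpa1* and *Prss2* had no count. The part of these markers in *Gcg* and *Ppy* was not tested. Of 6 beta cell markers *Ins1* and *Ins2* reached at most 0.150 and 0.181 cpm, while *Ucn3* led the list at a mean of 309 cpm in GUCY2Chi cells against 0.541 cpm. The 3 tested, *Ucn3*, *Iapp* and *G6pc2*, were called higher, beside 13.9% of all genes tested. *Iapp* was at a mean of 111 against 0.445 cpm. *G6pc2*, at 2.08 cpm, had no count in GUCY2Cmed cells and passed the filter only through GUCY2Chi cells.

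*Gcg* (ENSMUSG00000000394) lies at chr2:62474530-62483650 on GRCm38, minus strand. In GUCY2Chi cells it was at 14095 cpm in mouse 2, 21049.5 in mouse 7, 7291 in mouse 12, 22752 in mouse 14 and 4650.4 in mouse 15, with library sizes adjusted by the trimmed mean of M values (TMM), as for all cpm values here. In GUCY2Cmed cells it was at 27.9, 20.5, 14.6, 28.8 and 23.5 cpm in the same order of mice. The groups did not overlap, beside 16.7% of all genes tested that were likewise higher without overlap, and mice 12 and 15 were the lowest GUCY2Chi libraries. The mean was 13968 ± 8042 cpm (SD, n = 5) against 23.0 ± 5.79 cpm (SD, n = 5). The log2 fold change was 9.24 with a standard error of 0.63 (adjusted p = 4.36e-06, edgeR quasi-likelihood test with Benjamini-Hochberg adjustment). It was 9.55 without mice 12 and 15. Within a mouse, GUCY2Cmed cells held between 0.0973% and 0.504% of the *Gcg* level of GUCY2Chi cells.

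*Pyy* (ENSMUSG00000017311, chr11:102106676-102107832, minus strand) encodes peptide YY, which slows gut transit and reduces appetite. It was at 3652, 3580.4, 3505, 2215 and 1171 cpm in GUCY2Chi cells of mice 2, 7, 12, 14 and 15. GUCY2Cmed cells held 0.936, 0.161, 0.576, 0.751 and 1.63 cpm, which rested on 10, 2, 8, 10 and 19 counts. Unlike *Gcg*, *Pyy* in mouse 12 was close to its level in mice 2 and 7, and the lowest GUCY2Chi library was again mouse 15. Its change, 11.77 ± 0.68 (log2 fold change and standard error, adjusted p = 2.13e-06 by edgeR, higher in 5 of 5 mice), ranked at position 2 of all 15703 genes. Without mice 12 and 15 it was 12.32.

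*Nts* (ENSMUSG00000019890, chr10:102481756-102490486, minus strand) encodes neurotensin, released by dietary fat and also used as a neuropeptide in the brain. It reached 27062 cpm in mouse 2, 9357 in mouse 7, 16469 in mouse 12, 24703 in mouse 14 and 5326 in mouse 15 in GUCY2Chi cells. In GUCY2Cmed cells of these mice it was at 42.7, 0.803, 2.45, 5.71 and 12.6 cpm. GUCY2Cmed cells of mouse 2 were thus the highest of their group by far, and the range over the 5 mice was 53.2-fold, against 1.97-fold for *Gcg*. The summed forebrain neuron markers were at 490.9, 11.3, 648, 479.9 and 232 cpm in the same GUCY2Cmed libraries, lowest like *Nts* in mouse 7 but highest in mouse 12, and their part in the level was not tested. The log2 fold change of *Nts* was 10.34 with a standard error of 1.27 (adjusted p = 1.54e-04 by edgeR, higher in 5 of 5 mice). It was 10.28 without mice 12 and 15.

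*Ppy* (ENSMUSG00000017316, chr11:102099930-102101319, minus strand) encodes pancreatic polypeptide, a relative of peptide YY made mostly in the pancreas. It had 75, 121, 137, 16 and 75 counts in GUCY2Chi cells of mice 2, 7, 12, 14 and 15, which is 5.04, 7.30, 10.4, 1.23 and 4.72 cpm. No GUCY2Cmed library had a count. Against a floor of 3 counts per library, the mean in GUCY2Chi cells was at least 23.5-fold higher, and at least 18.7-fold without mouse 12, the highest. *Ppy* was called (adjusted p = 5.47e-04, edgeR), also without mice 12 and 15 (adjusted p = 0.00534). Since the gene passed the filter only through GUCY2Chi cells, these values are a description and no independent support.

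*Insl5* (ENSMUSG00000066090, chr4:103017872-103026842, minus strand) encodes insulin-like peptide 5, a relaxin-family hormone known from colonic L cells. Its counts in GUCY2Chi cells were 9, 124, 33, 3 and 3 in mice 2, 7, 12, 14 and 15, and 0 in each GUCY2Cmed library. Mouse 7 held most of the signal, at 7.48 cpm, and mice 14 and 15 were at the floor. The mean in GUCY2Chi cells was at least 9.02-fold higher than the floor, and at least 3.61-fold without mouse 7. The adjusted p was 0.0127 in edgeR, and the gene failed the filter once mice 12 and 15 were left out. For *Gcg*, *Pyy* and *Nts* the exact two-sided permutation test on log2(cpm + 0.1) gave p = 0.00794, the smallest that 5 libraries against 5 allow. No such p is given for *Ppy* and *Insl5*, which passed the filter only through the group where they had counts.

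**Figure D1:**
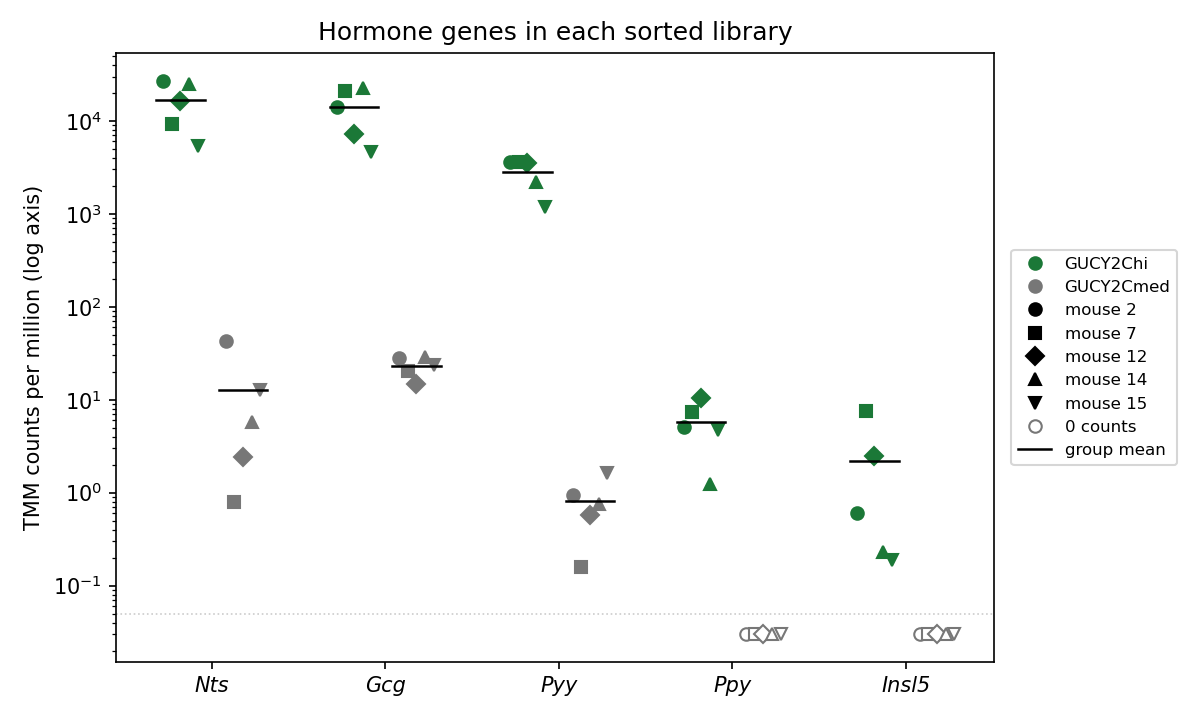
TMM-scaled cpm on a log axis for each of the 5 hormone genes, with green points for GUCY2Chi cells, grey points for GUCY2Cmed cells, a symbol per mouse and black lines at the group means; open points under the dotted line stand for 0 counts. *Gcg*, *Pyy* and *Nts* lie higher in GUCY2Chi cells without overlap, beside 16.7% of all genes tested. *Nts* reaches 42.7 cpm in GUCY2Cmed cells of mouse 2. *Ppy* and *Insl5*, which passed the filter only through GUCY2Chi cells, had no count in GUCY2Cmed cells, and *Insl5* had 3 counts in GUCY2Chi cells of mice 14 and 15.

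*Ppy* and *Pyy* are neighbours on chromosome 11, with 5356 bases between them, and belong to the same peptide family, so their coding sequences are shown for the reads they could share. Both are from GENCODE vM1 (NCBIM37), 5′ to 3′ without the stop codon, and capitals mark the longest run of bases that both hold.
Pyy: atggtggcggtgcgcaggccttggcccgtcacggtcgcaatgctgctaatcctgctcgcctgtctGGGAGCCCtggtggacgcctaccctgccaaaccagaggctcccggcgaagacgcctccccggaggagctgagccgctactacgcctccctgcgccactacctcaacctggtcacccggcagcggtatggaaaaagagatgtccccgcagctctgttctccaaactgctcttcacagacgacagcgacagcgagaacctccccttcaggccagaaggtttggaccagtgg
Ppy: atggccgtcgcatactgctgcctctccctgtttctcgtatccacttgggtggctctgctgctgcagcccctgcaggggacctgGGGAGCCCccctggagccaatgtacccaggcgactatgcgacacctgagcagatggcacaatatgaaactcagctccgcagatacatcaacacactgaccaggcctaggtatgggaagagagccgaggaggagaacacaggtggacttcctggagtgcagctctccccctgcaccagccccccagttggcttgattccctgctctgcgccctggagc
The coding sequences have 294 and 300 bases and were identical in 148 of 315 aligned columns (47.0%). The longest shared run had 8 bases, and 10 bases over the whole transcripts. The count of *Ppy* per kilobase was between 0.0703% and 0.509% of that of *Pyy* in GUCY2Chi cells. That share varied 7.24-fold over the mice, from mouse 14, the lowest, to mouse 15, the highest.

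Bases upstream of the start are shown for the 3 abundant hormones, which were all higher in GUCY2Chi cells, though not by the same factor. They are RefSeq windows on GRCm38.p6 read 5′ to 3′ on the minus strand: chr2:62483654-62483903 for *Gcg*, chr11:102107833-102108082 for *Pyy* and chr10:102490487-102490668 for *Nts*. The RefSeq start of *Nts* lies 68 bases inside the deposited gene, and these bases are not shown. Capitals mark matches on either strand to TATAAA, the E-box CANNTG, the GATA motif AGATAA, the AP-1 motif TGANTCA and the homeodomain core TAATTA, and no matches overlapped in these windows.
Gcg: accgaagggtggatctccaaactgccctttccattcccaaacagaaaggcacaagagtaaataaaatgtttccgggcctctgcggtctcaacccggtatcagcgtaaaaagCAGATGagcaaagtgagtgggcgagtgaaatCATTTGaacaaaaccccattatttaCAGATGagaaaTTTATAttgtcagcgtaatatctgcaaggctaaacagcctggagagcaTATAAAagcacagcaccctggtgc
Pyy: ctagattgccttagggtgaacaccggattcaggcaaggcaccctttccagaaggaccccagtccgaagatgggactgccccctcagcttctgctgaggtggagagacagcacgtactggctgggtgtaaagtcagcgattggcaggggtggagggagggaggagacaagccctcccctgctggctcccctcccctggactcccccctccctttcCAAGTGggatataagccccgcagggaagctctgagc
Nts: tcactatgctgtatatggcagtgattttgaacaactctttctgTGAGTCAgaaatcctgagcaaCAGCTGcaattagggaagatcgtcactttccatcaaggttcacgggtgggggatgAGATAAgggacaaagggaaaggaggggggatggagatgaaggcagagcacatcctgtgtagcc
*Gcg* held 3 E-box matches and 2 of TATAAA, the nearer of which ended 19 bases before the start. *Pyy* held 1 E-box match, and *Nts* held 1 match each of the E-box, GATA and AP-1 letters. Of 32851 RefSeq windows of 250 bases, 66.2% held an E-box match, 12.4% TATAAA, 9.99% AGATAA, 6.75% TGANTCA and 4.84% TAATTA. No motif was found in all 3 windows but the E-box, which most windows hold.

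Levels of different genes can be compared only per length, and the order of *Nts* and *Gcg* depended on the length used. With the deposited gene length, *Nts* was at 13288 ± 7545 cpm per kb (SD, n = 5) in GUCY2Chi cells and *Gcg* at 9349 ± 5383. *Pyy* was at 4477 ± 1741, *Ppy* at 11.5 ± 6.76 and *Insl5* at 3.04 ± 4.28 cpm per kb. *Nts* exceeded *Gcg* in 4 of 5 mice, with ratios of 2.30, 0.532, 2.70, 1.30 and 1.37 in mice 2, 7, 12, 14 and 15. The deposited FPKM, which are counts per length and library size, imply a length of 836 bases for *Gcg* in place of 1494, and with these lengths *Nts* exceeded *Gcg* in 2 of 5 mice. The levels of *Nts* and *Gcg* therefore lay within each other's spread. *Gcg* exceeded *Pyy* in 4 of 5 mice with the deposited length and in 5 of 5 with the FPKM length, and *Pyy* exceeded *Ppy* and *Insl5* in every GUCY2Chi library.

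*Gcg*, *Pyy* and *Nts* were set beside the hormones of K, I, S, X and D cells (*Gip*, *Cck*, *Sct*, *Ghrl* and *Sst*). Together they took 37.3%, 33.0%, 26.8%, 35.2% and 23.2% of the summed counts per kb of these 10 hormone genes, with the deposited gene length, in GUCY2Chi cells of mice 2, 7, 12, 14 and 15. In GUCY2Cmed cells they took between 7.11% and 26.0%, and the groups overlapped. *Cck* took between 8.46% and 52.7% of the summed counts per kb there. Its share was highest in mouse 12, which had the 7.11% and the highest forebrain neuron markers, at 648 cpm. The part of these markers in the shares was not tested. Within this sum the median share in GUCY2Chi cells was 14.97% for *Nts*, 9.55% for *Gcg* and 5.86% for *Pyy*, while *Gip*, the incretin of K cells, had 42.8%. With the lengths implied by the FPKM the order of *Nts* and *Gcg* turned, at 11.9% and 13.6%. *Ppy* and *Insl5* took at most 0.0238% and 0.0125%. In GUCY2Cmed cells the median share was 0.697% for *Pyy* and 10.5% for *Gcg*.

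**Figure D2:**
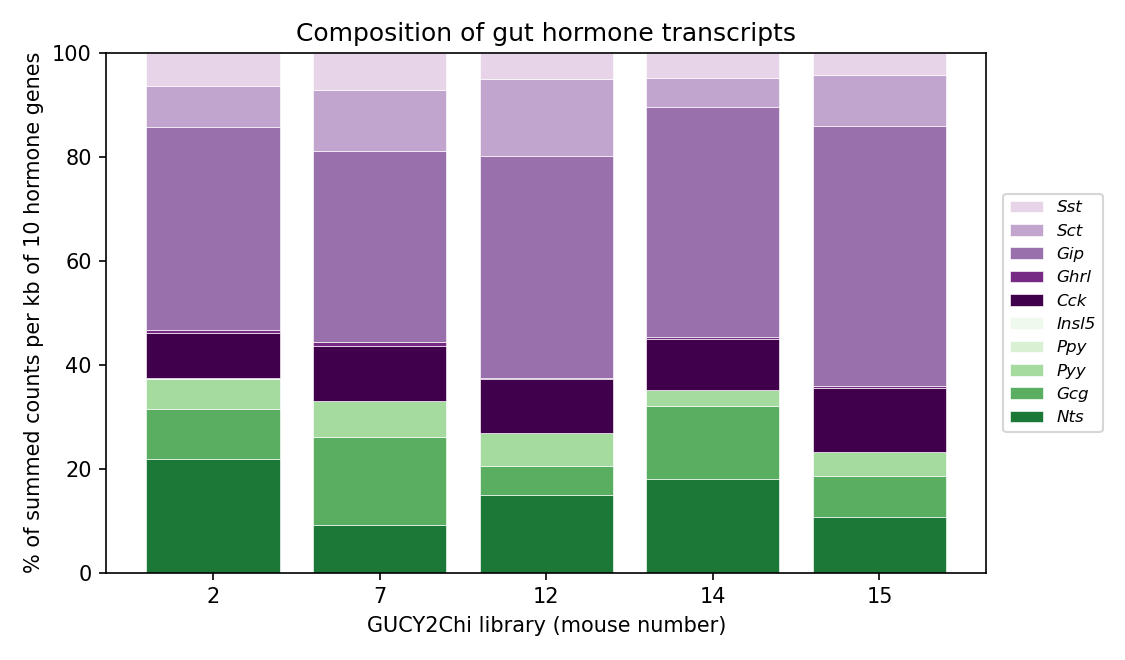
Share of each of 10 hormone genes in their summed counts per kb of deposited gene length, in percent, for the 5 GUCY2Chi libraries, with L, N and PP-type hormones in green at the bottom and the other hormones in purple. The green part ranges from 23.2% in mouse 15 to 37.3% in mouse 2, and *Gip* is the largest single part in each library.

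The ratio of *Gcg* to *Pyy*, both made by L cells, differed between the groups. In GUCY2Chi cells of mice 2, 7, 12, 14 and 15 it was 1.63, 2.48, 0.878, 4.34 and 1.68 per kb. In GUCY2Cmed cells it was 12.6, 53.9, 10.7, 16.2 and 6.09. The groups did not overlap, and the ratio was 7.73-fold higher in GUCY2Cmed cells by the geometric mean (exact two-sided permutation p = 0.00794, adjusted p = 0.0238 over 3 ratios, the smallest possible). As a share of the summed *Gcg* and *Pyy* counts, *Pyy* made up between 8.87% and 32.5% in GUCY2Chi cells. In GUCY2Cmed cells it made up 3.25% (95% exact binomial interval 1.57% to 5.89%) in mouse 2, 0.778% (0.0944% to 2.78%) in mouse 7 and 3.79% (1.65% to 7.33%) in mouse 12. It made up 2.54% (1.23% to 4.63%) in mouse 14 and 6.48% (3.95% to 9.94%) in mouse 15. The upper bound for mouse 15, 9.94%, lies above the lowest GUCY2Chi share, 8.87% in mouse 14. Compared within mice, with the mouse as block, 5 mice allow no exact p below 0.0625, which is the value reached. The log2 difference between the groups was -2.95, and -3.10 without mice 12 and 15.

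*Nts* relative to *Gcg* was lower in GUCY2Cmed cells of every mouse, at 1.83, 0.0469, 0.201, 0.238 and 0.642 per kb. These values overlap those of GUCY2Chi cells, and the difference of 2.23 on the log2 scale missed the threshold (exact permutation p = 0.0556, adjusted p = 0.0833). Without GUCY2Cmed cells of mouse 2, whose ratio was 1.83, the adjusted p was 0.0476 (exact permutation) and the difference 2.87. This was the only alternative that passed the threshold, and the other 14 missed it like the main result. *Nts* relative to *Pyy* was between 1.32 and 5.64 in GUCY2Chi cells and between 2.15 and 23.1 in GUCY2Cmed cells (exact permutation p = 0.365).

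**Figure D3:**
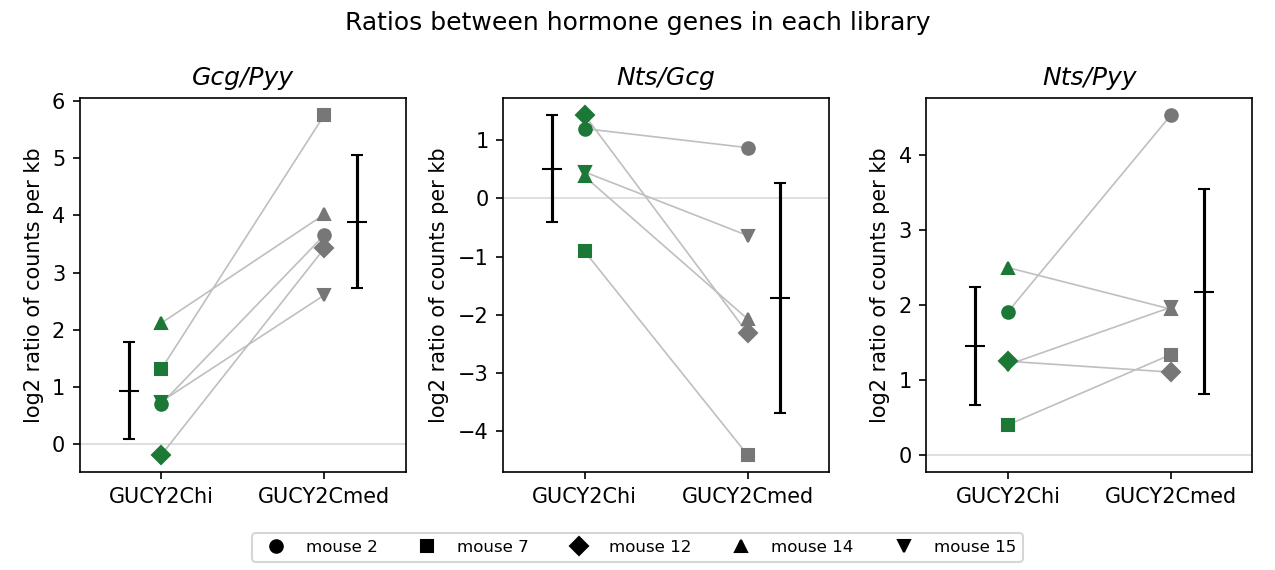
Log2 ratios of counts per kb between 3 pairs of hormone genes in each library, with a symbol and a grey line per mouse and black bars for the mean and SD of 5 libraries. The *Gcg* to *Pyy* ratio lies higher in GUCY2Cmed cells of all 5 mice without overlap, while the other ratios overlap.

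The abundant hormones did not keep a fixed proportion over the 5 GUCY2Chi libraries. The SD of the log2 level was 0.99 for *Gcg*, 0.71 for *Pyy* and 0.99 for *Nts*, and 1.17 and 2.28 for *Ppy* and *Insl5*, whose counts were low. The SD of the log2 ratio was 0.85 for *Gcg* to *Pyy*, 0.92 for *Gcg* to *Nts* and 0.79 for *Pyy* to *Nts*, about as large as the SD of each gene alone. For genes that varied independently it would exceed the SD of either gene, so these values do not show independence. Mouse 14 had the highest *Gcg*, mouse 2 the highest *Pyy* and *Nts*, mouse 12 the highest *Ppy* and mouse 7 the highest *Insl5*, and mouse 15 was lowest in all but *Ppy*. These values share library and scaling, and are given as a description.

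Other genes followed single hormones more closely. Likeness was measured as the SD over the 5 GUCY2Chi libraries of the log2 ratio to the hormone, among genes called higher with a mean of at least 20 cpm. Of 879 such genes, *Shisa2* was most like *Gcg* (SD 0.11), followed by *Gm14097* (0.14) and *Lhfpl2* (0.16), whereas *Pyy* ranked at 754 and *Nts* at 799. *Man1c1* was most like *Pyy* (SD 0.12), followed by *Ssfa2* (0.24) and *Pax4* (0.25), a transcription factor of endocrine precursors. *Dnajc12* (0.36), *Tmed6* (0.36) and *Fam221a* (0.37) were most like *Nts*. For *Ppy* the nearest, *Hspb1* (0.90), *S100a6* (0.91) and *Foxq1* (0.94), were hardly closer than the SD of *Ppy* itself, and *Pyy* ranked at 19 of 880. With 5 libraries and this many candidates, the order is a description.

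The genes around these hormones were described by lists, each beside the background of 13.9% called higher and 8.79% called lower and a median log2 fold change of 0.09 over all genes. All 5 of the other gut hormones were called higher, with a median log2 fold change of 8.61, from *Sst* at 6.82 to *Gip* at 11.30. *Cck*, *Ghrl* and *Sct* were at 7.24, 8.61 and 9.07. The median of the L, N and PP-type hormones was 9.28, and 9.24 with *Ppy* and *Insl5* at their bounds.

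Of 7 genes of prohormone maturation, 5 were called higher, with a median log2 fold change of 6.03. *Qpct*, which forms the pyroglutamate end of peptides such as neurotensin, led at 7.73 (adjusted p = 3.25e-06, edgeR). *Pcsk1*, the convertase that makes GLP-1, followed at 6.67 (adjusted p = 3.76e-06), with 634 ± 268 cpm (SD, n = 5) in GUCY2Chi cells and 6.25 ± 1.73 cpm in GUCY2Cmed cells. *Scg5*, a chaperone of PC2, was at 6.35, the carboxypeptidase *Cpe* at 6.03, and *Pam*, which amidates peptide ends, at 4.70. *Pcsk2*, the convertase that makes glucagon in alpha cells, was not called, nor was *Pcsk1n*, an inhibitor of PC1/3. Both are named because they were not called, after their values were seen.

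*Pcsk2* was at 8.94, 17.6, 14.99, 26.7 and 27.0 cpm in GUCY2Chi cells of mice 2, 7, 12, 14 and 15 and at 8.33, 0.642, 11.02, 11.04 and 3.85 cpm in GUCY2Cmed cells (log2 fold change 1.44, adjusted p = 0.0667, edgeR). The groups overlapped. *Pcsk1n* was at 284 ± 43.4 cpm in GUCY2Chi cells and 82.1 ± 56.0 cpm in GUCY2Cmed cells (log2 fold change 1.79, adjusted p = 0.0485, edgeR). Both genes are also expressed in neurons, and both were lowest in GUCY2Cmed cells of mouse 7, *Pcsk1n* at 2.97 cpm, where the forebrain neuron markers were lowest at 11.3 cpm. Without that library *Pcsk1n* was called higher (log2 fold change 1.48, adjusted p = 0.00337, edgeR). In GUCY2Cmed cells the called genes *Cpe*, *Scg5* and *Cck* were likewise lowest in mouse 7, at 7.79, 1.61 and 7.15 cpm. They were highest in mouse 12, like the forebrain neuron markers, at 138, 29.2 and 122 cpm. *Qpct* and *Pam* were lowest in mouse 7 but not highest in mouse 12, and *Pcsk1* was lowest in mouse 12. The part of the forebrain neuron markers in these levels was not tested.

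Of 14 transcription factors of the endocrine lineage, 13 were called higher, with a median log2 fold change of 7.29, or 6.45 with genes near 0 in GUCY2Cmed cells at their bounds. *Rfx6*, *Pax6* and *Onecut3* stayed under 0.5 cpm in every GUCY2Cmed library and passed the filter only through GUCY2Chi cells. Their calls are a description. Among the largest changes were those of *Isl1* (8.74), *Rfx6* (8.47), *Neurod1* (8.45), *Lmx1a* (8.12) and *Pax6* (8.09). *Isl1* and *Pax6* are known as regulators of the proglucagon gene. *Neurog3*, the factor of early endocrine precursors, was the gene not called and is named for that. It was at 2.70 ± 0.764 cpm (SD, n = 5) in GUCY2Chi cells and 2.78 ± 1.25 cpm (SD, n = 5) in GUCY2Cmed cells, with a log2 fold change of -0.04 that turned to 0.24 without TMM. With the mouse as block the count was 12 of 14.

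Of 10 sensors by which endocrine cells respond to nutrients or neighbours, 9 were called higher. *Gpr119*, *Ffar1*, *Mc4r*, *Casr*, *Sstr5* and *Gpbar1* stayed under 0.5 cpm in every GUCY2Cmed library. They passed the filter only through GUCY2Chi cells, so their calls and folds are a description and no independent support. *Gpr119*, a receptor for fat-derived amides, was at least 314-fold and *Ffar1*, a receptor for long-chain fatty acids, at least 273-fold higher than the floor of 3 counts per library. The melanocortin receptor *Mc4r* was at least 51.3-fold and the calcium-sensing receptor *Casr* at least 15.9-fold higher. *Sstr5*, a somatostatin receptor, had a log2 fold change of 9.80, and *Gpbar1*, a bile acid receptor known on L cells, of 5.88. With the mouse as block, *Casr* was not called (adjusted p = 0.0107, edgeR) and the count was 7 of 10.

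*Slc5a1*, the glucose transporter SGLT1, was the sensor not called (log2 fold change -1.88, adjusted p = 0.0109, edgeR) and is named for that. It was at 708 ± 504 cpm in GUCY2Chi cells and 2603 ± 911 cpm in GUCY2Cmed cells, lower in GUCY2Chi cells of 5 of 5 mice. It was called lower with the mouse as block (adjusted p = 0.00766), and without mice 12 and 15 (log2 fold change -2.75). Enterocytes also carry it, and the summed enterocyte markers were lower in GUCY2Chi cells, least so in mice 12 and 15, where *Slc5a1* was at 1084 and 1392 cpm. Their part was not tested.

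Of 13 receptors and proteases of these peptides 8 passed the filter, 3 were called higher and 1 lower, with a median log2 fold change of 0.84. Of the genes called higher, *Glp1r* and *Gcgr* stayed under 0.5 cpm in every GUCY2Cmed library. They passed the filter only through GUCY2Chi cells, so their calls are a description. *Glp1r*, the GLP-1 receptor, rose by 5.74 on the log2 scale to 9.83 ± 5.08 cpm (SD, n = 5). In GUCY2Cmed cells it had 6 and 5 counts in mice 12 and 15 and none in the other mice, so that the fitted value without mice 12 and 15, 10.35, depends on the prior count. *Npy1r*, a receptor of the peptide YY family, rose by 3.87 to 12.9 ± 4.48 cpm, and was not called without mice 12 and 15 (3.86, adjusted p = 0.0143, edgeR). *Gcgr*, the glucagon receptor, was called higher, at between 0.189 and 4.09 cpm in GUCY2Chi cells, at least 6.15-fold over the floor, and at least 3.50-fold without mouse 14. With a library left out its log2 fold change ranged from 4.41 to 7.33, and it was not called without GUCY2Cmed cells of mouse 14 (adjusted p = 0.0102, edgeR) or of mouse 15 (adjusted p = 0.0111). *Npy4r*, the receptor of pancreatic polypeptide, had no count in any library, and *Glp2r*, *Npy5r*, *Ntsr1* and *Rxfp4*, the receptor of insulin-like peptide 5, failed the filter.

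*Dpp4*, the protease that inactivates GLP-1 and trims peptide YY, was lower in GUCY2Chi cells, at 266 ± 76.7 cpm against 650.4 ± 156 cpm (log2 fold change -1.29, adjusted p = 0.00258, edgeR, lower in 5 of 5 mice). With the mouse as block its adjusted p was 0.0104, above the threshold. *Mme*, the protease neprilysin, was not called (log2 fold change -2.42, adjusted p = 0.0278), and without mice 12 and 15 its log2 fold change was -4.84 (adjusted p = 5.60e-05, edgeR). *Dpp4* and *Mme* are brush border enzymes of enterocytes. *Mme* in GUCY2Chi cells was at 165 and 248 cpm in mice 12 and 15 and at most 18.8 cpm in the others. *Dpp4* ranged only from 180 to 357 cpm in GUCY2Chi cells. The part of the enterocyte markers in the levels of *Dpp4* and *Mme* was not tested. *Sort1*, the sorting receptor that binds neurotensin, was 0.47 higher on the log2 scale (adjusted p = 0.0233, edgeR) and not called, but was called with DESeq2 (adjusted p = 0.00705) and without TMM (adjusted p = 0.00179). *Npy2r* and *Ntsr2*, receptors of peptide YY and neurotensin, had log2 fold changes of 1.22 and 0.37 (adjusted p = 0.275 and 0.791). These 4 genes are named because they were not called.

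**Figure D4:**
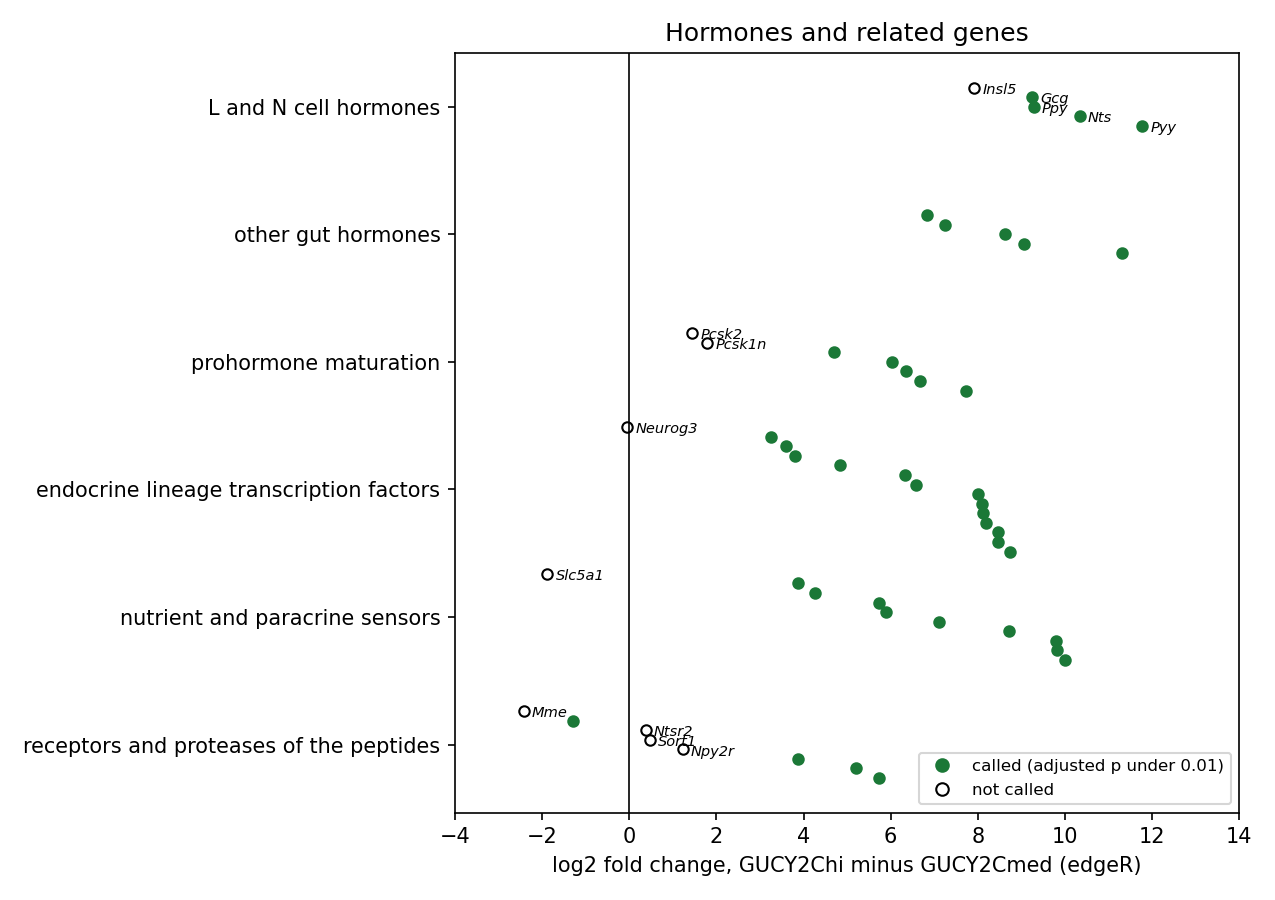
Log2 fold change from edgeR, GUCY2Chi minus GUCY2Cmed, for each tested gene of the hormones and of 5 lists of related genes, with filled points for genes called at an adjusted p under 0.01 and open, named points for genes that were not. The hormones range from 7.91 to 11.77, while the receptors and proteases fall on both sides of 0; fitted values of genes without counts in GUCY2Cmed cells depend on the prior count.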

How the data were processed

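RNA-seq libraries from sorted cells of 5 mice were compared, 5 per group. The authors deposited raw counts per gene, made by the sequencing provider with STAR from paired-end reads; the annotation and counting options are not given in the sources used here. The labels name build mm9, but the deposited positions of the hormone genes are those of GRCm38. The FPKM values, deposited by the authors, were used only for the length they imply. Further normalized columns (12) and the authors' own comparisons, made with limma 3.40.6 and edgeR 3.26.8 per the labels, were not used.

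Genes over 0.5 cpm in at least 3 libraries (15703 of 54532) were tested in R 4.3.3 with edgeR 4.0.16: TMM factors, quasi-likelihood test, no term for the mouse, and an adjusted p (Benjamini-Hochberg) under 0.01. Biological variation had a coefficient of 0.458. Standard errors are the log2 fold change over the root of F. The test was checked on simulated data. Genes with at most 3 counts in every library of a group received a fold against 3 counts per library, which covers counting error only, as do the binomial intervals (95%). For ratios of counts per kb, log2 values were tested by exact two-sided permutation at 0.05, in Python 3.11.15 with scipy 1.17.1. Alternatives were limma-voom 3.58.1, DESeq2 1.42.0, the mouse as replicate block, other scalings and filters, and libraries left out. GENCODE vM1 lengths, TMM factors without the hormone genes and the *Insl5* bound without mouse 7 were added after seeing the data.

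The members and lists (5 of related genes, 12 of markers) were chosen with earlier results of these data known. Named are the hormones, up to 6 called genes per list with the largest change, leading markers and markers at 0, and the 3 genes most like each hormone over 5 cpm; a few genes that the rule names are not reported here. The pairing comes from the methods, by which each mouse was sorted into both groups. Deviations of same-numbered libraries from their group means correlated at -0.11, -0.22, 0.27, -0.12 and 0.06 in mice 2, 7, 12, 14 and 15. The highest correlation of each GUCY2Chi library with a GUCY2Cmed library of another number was 0.54, 0.29, 0.090, 0.43 and 0.40. It exceeded that of the same number in all mice but mouse 12, so the pairing has no support from the counts.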

Additional observations from a re-analysis of the deposited data

Results flagged for a closer look

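In 3 of 26 groups of 5 libraries checked, a library lay far from the others by Dixon's test, which by chance marks about 1 group in 20. *Nts* in GUCY2Cmed cells was at 42.7 cpm in mouse 2 and between 0.803 and 12.6 cpm in the other mice. The log2 ratio of *Nts* to *Pyy* in GUCY2Cmed cells was likewise far from the others in mouse 2, at 4.53 against 1.10 to 1.97, and rests on the same *Nts* value. *Sst*, the somatostatin gene of D cells, was at 44.2 cpm in GUCY2Cmed cells of mouse 15 and between 24.9 and 28.8 cpm in the other mice.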

How the results depend on the processing

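*Gcg*, *Pyy*, *Nts* and *Ppy* were called higher in each of 20 alternatives, with log2 fold changes of 9.001 to 9.55, 11.50 to 12.32, 10.03 to 11.61 and 6.89 to 9.55. *Ppy* passed the main filter only through GUCY2Chi cells, so its calls are given as a description. The replicate block in edgeR changed no call among the 5 hormones, and among the lists of related genes only those of *Casr*, *Ffar3*, *Etv1*, *Dpp4* and *Slc5a1*. *Insl5* gave a value in 15 alternatives, 4.57 to 8.23, failed the filter in the others, and was called in 4: with DESeq2 (7.20, adjusted p = 7.39e-06), with limma-voom and the replicate block (4.75, adjusted p = 0.00598), with no filter (7.91, adjusted p = 0.00499) and without GUCY2Chi cells of mouse 15 (8.23, adjusted p = 0.00887). The cause was not tested.

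Over all genes, 2186 were higher and 1381 lower. The counts were 1294 and 779 with the replicate block, 2960 and 2235 with DESeq2 and 2910 and 557 without TMM, where the median log2 fold change was 0.39 in place of 0.09, so that 83.9% and not 61.3% of the calls were higher. Leaving out each library in turn gave 1636 to 2534 higher and 512 to 1609 lower; the lowest count of lower genes was without GUCY2Chi cells of mouse 2, and those without GUCY2Chi cells of mice 7 and 14 or GUCY2Cmed cells of mice 2, 12, 14 and 15 also fell by over 1.5 times (584, 692, 683, 744, 758 and 532).

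Among the sensors, edgeR called 0 genes lower (1, *Slc5a1*, at an unadjusted p under 0.05), and 1 with limma-voom, DESeq2, either replicate block, without GUCY2Chi cells of mouse 15 (range 0 to 1 over libraries left out) or without mice 12 and 15. Among the receptors and proteases the count of lower genes was 1, but 2 with limma-voom, DESeq2, limma-voom with the replicate block and without mice 12 and 15, 0 with the edgeR replicate block, and 0 to 2 with a library left out (2 without GUCY2Chi cells and 0 without GUCY2Cmed cells of mouse 15).

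The log2 difference in the *Gcg* to *Pyy* ratio was -2.95 with the replicate block within mice (adjusted p = 0.0938) and -3.10 without mice 12 and 15 (adjusted p = 0.3), and neither design can pass the threshold. That of *Nts* to *Gcg* ranged from 1.55 to 2.87 with a library left out. *Neurog3* changed sign from -0.04 to 0.011 with limma-voom, 0.032 with the replicate block, 0.24 without TMM and 0.088 without mice 12 and 15, and ranged from -0.19 to 0.18 with a library left out. *Ntsr2* ranged from -0.21 to 1.12 then, against 0.37. Depth limits *Insl5* and the GUCY2Cmed counts of *Pyy*, 2 to 19 per library.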
